A study of Drosophila melanogaster with 32 samples.

Results

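The genes described here are 10 members of the alpha-glucosidase family of Drosophila melanogaster, namely the 9 maltase genes Mal-A1, Mal-A2, Mal-A3, Mal-A4, Mal-A6, Mal-A7, Mal-A8, Mal-B1 and Mal-B2, and the gene tobi (target of brain insulin). They were taken as the probe sets that the array annotation assigns to exactly 1 gene with one of these symbols. Each gene had 1 probe set, and together they are 10 of the 11982 genes named in this way. Expression was measured in whole adult females of 8 laboratory populations, all derived from the LHM base stock. For 46 generations 4 populations had been held to a single mating per generation (monogamous) and 4 had been kept on the usual protocol in which flies mate with several partners (promiscuous). Females of each population were mated to males of their own population or of the population with the same number in the opposite regime, and RNA was taken from flies frozen 6 h after mating. The 4 groups were therefore monogamous females with monogamous-line males, monogamous females with promiscuous-line males, promiscuous females with monogamous-line males, and promiscuous females with promiscuous-line males, with 8 arrays each. Every one of the 16 crosses had 1 array in batch 1 and 1 in batch 2, so the batch effect on a single cross cannot be told apart from the spread between its arrays. All populations share the same founding stock, and no allele or agent was introduced in any of them.

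Maltases are alpha-glucosidases that release glucose from maltose and related sugars, and in flies they are best known as enzymes of the midgut, where they complete the digestion of dietary starch and sugar. Mal-A1, Mal-A2 and Mal-A3 were first described as larval visceral proteins, and the remaining Mal genes were assigned to the family by sequence. The gene tobi encodes a related enzyme expressed in gut and fat body. In flies it is raised by dietary protein and lowered by dietary sugar, under the control of insulin-like and glucagon-like (adipokinetic) hormones. Maltase and amylase genes are repressed by dietary glucose in the fly midgut, a response that depends on the activin-like ligand daw and its mediator Smox.

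Values are deposited RMA expression values on the log2 scale, on which a difference of 1 is a doubling, and differences are monogamous minus promiscuous unless stated otherwise. Array medians lay between 5.41 and 5.50. The whole-female label was borne out by marker genes. Ovary markers (6 genes) had a mean log2 value between 11.92 and 12.00 over monogamous and between 11.88 and 11.94 over promiscuous populations, whereas the 7 accessory gland and testis markers were near the lower end of the array scale, with means of 2.72 to 3.71. Whole flies were sampled, so fewer cells of a type and less RNA per cell cannot be told apart. A female population, the unit that evolved, was the sample in all tests between regimes, with n = 4 per regime.

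Females of the monogamous populations had higher mean values of all 10 genes than females of the promiscuous populations, averaged over both kinds of mate. The set does not hold every maltase gene on the array. Mal-A5, which lies in the Mal-A cluster and is not a member, went the other way, at -0.14 with an SE of 0.11. The median difference over the 10 was 0.57, against a median of -0.004 over all 18769 probe sets tested, of which 47.1% lay above 0. The sizes ran from 0.13 for Mal-A8 to 1.28 for Mal-A6. Single genes did not pass the test across the array: limma called 0 of the 10 at an adjusted p of 0.05 (smallest adjusted p 0.554), and it called 0 of all probe sets (0%). At an unadjusted p under 0.05 there were 5 of the 10, namely Mal-A1, Mal-A4, Mal-A7, Mal-B1 and tobi, against 1334 of all probe sets (7.11%). The 10 genes are not independent of one another, as the correlations given further on show, and missing the threshold does not show that the regimes were alike. They were also chosen with earlier results of these data known. Counts of the 10 set beside shares of all probe sets, here and below, are therefore descriptions and not a test of the set.

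Mal-B1, a maltase gene that lies next to Mal-B2 on chromosome arm 2L, had its 4 population means in monogamous females at 7.50, 7.81, 7.90 and 7.49 (populations 1 to 4), against 7.17, 6.44, 5.88 and 6.33 in promiscuous females. Each monogamous population lay above each promiscuous one, with promiscuous population 1 nearest to the monogamous range and promiscuous population 3 lowest. Monogamous populations averaged 7.67 ± 0.21 and promiscuous populations 6.45 ± 0.53 (SD, n = 4 each). The difference was 1.22 with an SE of 0.24, a 2.33-fold ratio, and limma gave an unadjusted p of 0.000534 and an adjusted p of 0.554. It ranked 15 of all probe sets by p.

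The gene tobi, the hormone-regulated member on chromosome arm 3R, averaged 10.23, 10.22, 10.51 and 10.69 in monogamous populations 1 to 4, against 9.46, 9.15, 9.83 and 9.84 in promiscuous populations 1 to 4. These groups of means did not overlap either. The regimes averaged 10.41 ± 0.23 in monogamous and 9.57 ± 0.33 in promiscuous females (SD, n = 4 each), a difference of 0.84 with an SE of 0.16 and a ratio of 1.79. The limma unadjusted p was 0.000611 and the adjusted p 0.554. Non-overlapping population means were thus found for 2 of the 10 genes, both higher under monogamy, where 4.08% of all probe sets did not overlap in either direction and 1.6% did so with monogamous populations higher. Earlier results of these data had already named both genes, so their lack of overlap is not independent evidence.

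**Figure D1:**
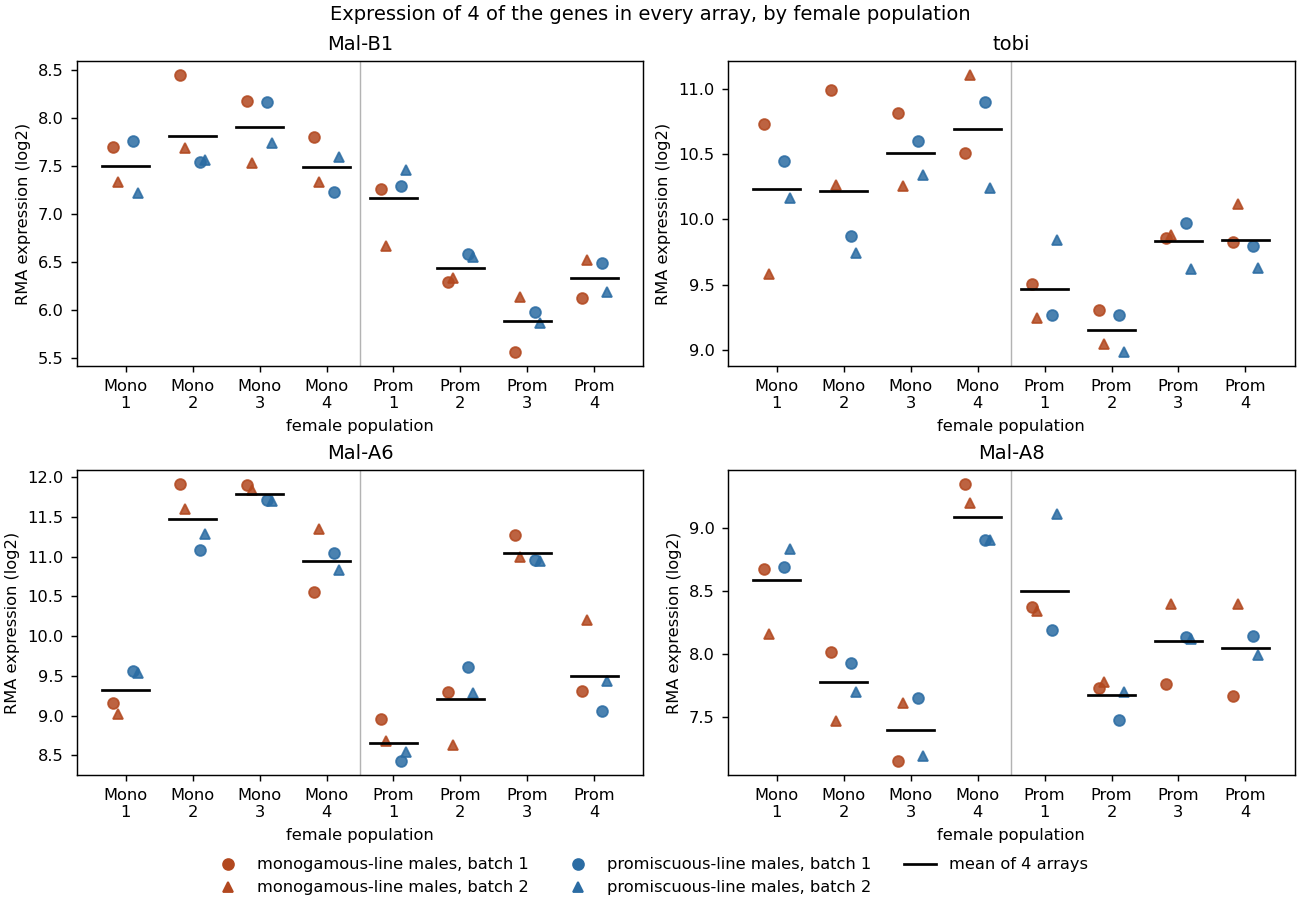
RMA expression (log2, vertical axis) of Mal-B1, tobi, Mal-A6 and Mal-A8 in each of the 32 arrays, by female population, with colour for the regime of the males, symbol for the batch and a bar for the mean of the 4 arrays of a population. Population means of Mal-B1 (7.49 to 7.90 in monogamous, 5.88 to 7.17 in promiscuous) and of tobi did not overlap between regimes, while those of Mal-A6 and Mal-A8 did.

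Array by array the separation was less complete. For Mal-B1 the 8 arrays of monogamous females with monogamous-line males ran from 7.33 through a median of 7.69 to 8.45, and those of monogamous females with promiscuous-line males from 7.22 through 7.58 to 8.17. Promiscuous females ran from 5.55 through 6.31 to 7.26 with monogamous-line males and from 5.86 through 6.52 to 7.45 with promiscuous-line males. The overlap came from promiscuous population 1, whose arrays reached into the monogamous range.

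For tobi the arrays of monogamous females ran from 9.58 through a median of 10.62 to 11.11 with monogamous-line males and from 9.75 through 10.29 to 10.90 with promiscuous-line males. Those of promiscuous females ran from 9.05 through 9.66 to 10.12 with monogamous-line males and from 8.98 through 9.62 to 9.97 with promiscuous-line males. The monogamous array at 9.58 (population 1 with its own males, batch 2) and those at 9.87 and 9.75 (population 2 with promiscuous-line males) lay within the promiscuous range, and the other monogamous arrays lay above it.

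The Mal-A cluster is a run of 8 neighbouring genes on chromosome arm 2R. The 7 of them that belong to the set described here all averaged higher in monogamous females but overlapped between regimes. Mal-A1 averaged 12.11 ± 0.45 in monogamous and 11.47 ± 0.39 in promiscuous populations (SD, n = 4 each), a difference of 0.65 with an SE of 0.24. Mal-A7 averaged 8.73 ± 0.31 in monogamous and 7.96 ± 0.56 in promiscuous populations (SD, n = 4 each), a difference of 0.77 with an SE of 0.26. Mal-A4 averaged 8.41 ± 0.22 in monogamous and 7.91 ± 0.38 in promiscuous populations (SD, n = 4 each), a difference of 0.50 with an SE of 0.18. These 3 had unadjusted limma p-values of 0.0259 for Mal-A1, 0.0154 for Mal-A7 and 0.0223 for Mal-A4, with adjusted p-values of 0.640, 0.603 and 0.634 in that order. Mal-A2 differed by 0.48 (SE 0.23) and its neighbour Mal-A3 by 0.46 (SE 0.23), and neither was under an unadjusted p of 0.05.

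Mal-A6 had the largest difference of the 10 and also the widest spread. Its monogamous population means were 9.32, 11.47, 11.79 and 10.94, against 8.65, 9.21, 11.04 and 9.50 in promiscuous populations 1 to 4. Monogamous population 1 lay below 2 of the promiscuous populations, and promiscuous population 3 lay above 2 of the monogamous ones. The difference of 1.28 (2.43-fold) had an SE of 0.61 and an unadjusted limma p of 0.0641.

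Mal-A8, at one end of the cluster, had the smallest difference, 0.13 with an SE of 0.34, and its sign rested on single populations. It averaged 8.59, 7.77, 7.40 and 9.09 in monogamous populations 1 to 4 and 8.51, 7.67, 8.10 and 8.05 in promiscuous ones, so the highest and the lowest mean were both monogamous. Without monogamous population 4 the difference was -0.16, and without promiscuous population 2 it was -0.01. Leaving out monogamous population 1, 2 or 3 gave 0.01, 0.28 and 0.40, and leaving out promiscuous population 1 gave 0.27. Mal-B2, the neighbour of Mal-B1, averaged 8.98 ± 0.22 in monogamous and 8.75 ± 0.14 in promiscuous females (SD, n = 4 each), a difference of 0.23 that was 0.14 without monogamous population 1.

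**Figure D2:**
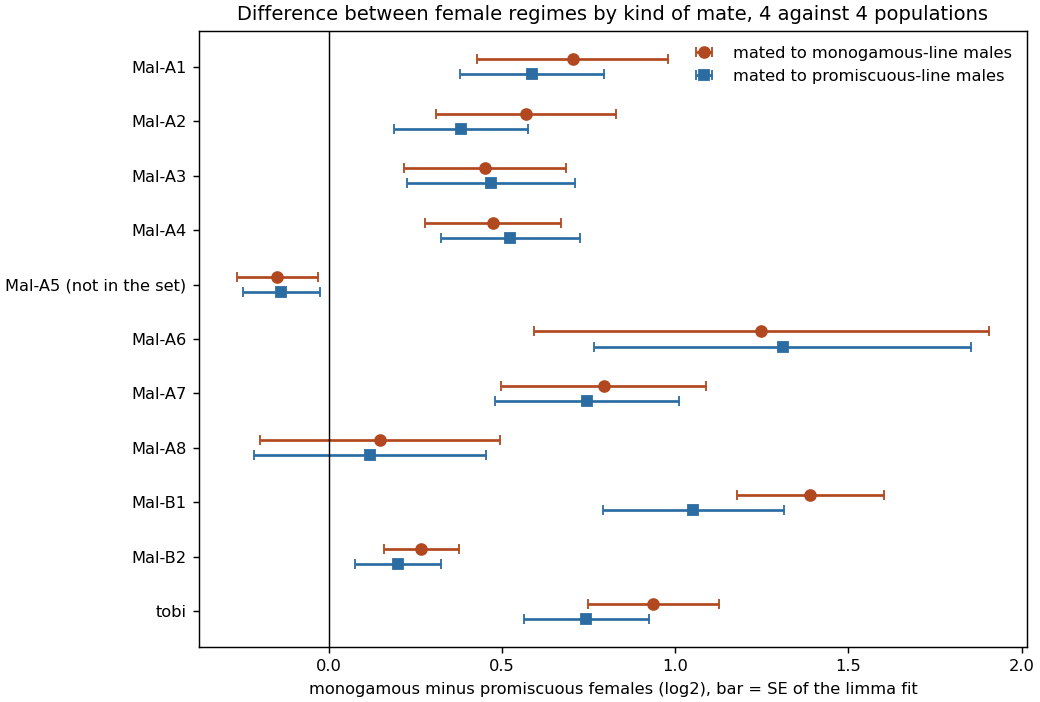
Difference between monogamous and promiscuous females (log2, horizontal axis) for each gene, separately after mating with monogamous-line males (red circles) and with promiscuous-line males (blue squares), with the SE of the limma fit on 4 against 4 populations as a bar. All points of the 10 genes lie above 0, with Mal-B1 at 1.39 and 1.05, while Mal-A5, which is shown for comparison, lies below 0.

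Genes beside these loci had differences closer to 0 than most of the 10. Mal-A5, a maltase gene inside the same cluster between Mal-A4 and Mal-A6, averaged 10.23 ± 0.16 in monogamous and 10.37 ± 0.22 in promiscuous populations (SD, n = 4 each), a difference of -0.14 with an SE of 0.11. The difference was 0.08 for Cyp4e1 next to Mal-A1 and 0.01 for mtt next to Mal-A8, with CG12780 beyond it at 0.21 (SE 0.14). Beyond the Mal-B pair, the odorant receptor genes Or33a and Or33b were at -0.02 and -0.03, and rha, next to tobi, was at 0.04. None of these 7 neighbours had an unadjusted limma p under 0.05. The order of genes comes from RefSeq, in which Mal-A1 overlaps Cyp4e1, Mal-A8 overlaps mtt and tobi overlaps rha, and the probe sets of those partners are separate.

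The female difference was seen with either kind of mate. Both comparisons use the same female populations, and the comparison given above is their mean, so neither is an independent repeat of it. With monogamous-line males all 10 genes averaged higher in monogamous females, with a median difference of 0.64, against 48.6% of all probe sets above 0. Limma called 0 of the 10 and 0 of all probe sets (0%), and 6 of the 10 had an unadjusted p under 0.05 against 8.05% of all. Mal-B1 averaged 7.75 ± 0.26 in monogamous and 6.36 ± 0.46 in promiscuous females (SD, n = 4 each) in those crosses. Its difference of 1.39 had an SE of 0.21, the second smallest unadjusted limma p on the array (7.76e-05) and an adjusted p of 0.303. For tobi the difference was 0.94 with an SE of 0.19.

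With promiscuous-line males all 10 genes again averaged higher in monogamous females, with a median of 0.55, against 46.3% of all probe sets above 0. Limma called 0 of the 10 and 0 of all probe sets (0%), with 6 of the 10 under an unadjusted p of 0.05 against 5.98% of all. Mal-B1 averaged 7.60 ± 0.24 in monogamous and 6.55 ± 0.61 in promiscuous females (SD, n = 4 each), a difference of 1.05 with an SE of 0.26. The difference for tobi was 0.74 with an SE of 0.18. Population means did not overlap for Mal-B1 and tobi among the 10, with either kind of mate, and both were higher in monogamous females. With monogamous-line males 4.74% of all probe sets did not overlap in either direction (2.08% with monogamous females higher), and with promiscuous-line males 3.15% did not (1.43% with monogamous females higher).

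Crosses within a population, in which both sexes share regime and population, gave a median difference of 0.71 with all 10 genes higher in the monogamous crosses, against 48.9% of all probe sets. These crosses are part of the comparisons above and are not independent of them. Limma called 0 of the 10 and 0 of all probe sets (0%), and 7 of the 10 had an unadjusted p under 0.05, against 6.28% of all probe sets. In these crosses tobi differed by 0.99 with an SE of 0.16, with an unadjusted limma p of 0.000136 and an adjusted p of 0.320. Mal-B1 differed by 1.20 with an SE of 0.27.

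Females of same-numbered populations were mated to males of the same pair of populations, and the regimes were therefore also set side by side number by number. Same-numbered populations did not meet the criterion for pairs, as given with the processing, and the genes are correlated. The counts that follow are therefore descriptions. For 7 of the 10 genes (Mal-A1, Mal-A2, Mal-A4, Mal-A6, Mal-A7, Mal-B1 and tobi) the monogamous population was higher in each of the 4 numbers, against 6.72% of all probe sets. The differences for tobi were the most even, at 0.77, 1.07, 0.68 and 0.85 for numbers 1 to 4. Those for Mal-B1 were 0.33, 1.37, 2.02 and 1.16, smallest at number 1, where the promiscuous population was high. The exceptions were Mal-A3 at -0.13 and Mal-B2 at -0.13, both at number 4, and Mal-A8 at -0.71 at number 3.

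Populations of a single regime also differed from one another in many of these genes. A moderated F test over the arrays, with male regime and batch as terms, called 5 of the 10 among the monogamous populations, where 13.5% of all probe sets were called. Among the promiscuous populations it called 9 of the 10, where 9.88% of all were called. These tests ask whether populations differ beyond the spread of their arrays, and the 4 arrays of a population share its flies' history and its males. Leaving out promiscuous population 3 lowered the second count to 4. That count ranged from 4 to 8 when any of the 4 populations was left out. Calls over all probe sets fell as well, from 1854 to 1043 without population 3. They were between 1333 and 1513 when another promiscuous population was left out.

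Mal-A6 was the most variable gene in both regimes. Its monogamous populations spanned 2.47 on the log2 scale (F = 57.2, limma adjusted p = 1.31e-09), in the order 3, 2, 4 and 1 from high to low. Its promiscuous populations spanned 2.39 (F = 49.9, adjusted p = 1.03e-08), in the order 3, 4, 2 and 1. Monogamous populations 3 and 2, at 11.79 and 11.47, differed by less than the SD of the arrays of population 2 (0.36) and by more than that of population 3 (0.10). Promiscuous populations 4 and 2, at 9.50 and 9.21, differed by less than either of their array SDs (0.49 and 0.42). The SD among populations was exceeded by 0.155% of all probe sets in monogamous and by 0.101% in promiscuous females. Leaving out population 1 lowered the monogamous F to 9.20 and leaving out population 3 lowered the promiscuous F to 8.07.

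Mal-A1, Mal-A2, Mal-A3, Mal-A4 and Mal-A7 had a similar order of populations. In promiscuous females population 3 was highest and population 2 lowest for each of these 5 genes, as in Mal-A1 at 11.28, 11.09, 11.99 and 11.51 for populations 1 to 4. For Mal-A2, Mal-A3 and Mal-A4 populations 2 and 1 differed by less than either of their array SDs. In Mal-A4 they were at 7.57 and 7.61, with array SDs of 0.34 and 0.30. In monogamous females population 3 was highest for each of the 5, as in Mal-A1 at 11.53, 12.32, 12.58 and 12.01. For Mal-A2, Mal-A3, Mal-A4 and Mal-A7 it was above the next population by less than either of their array SDs. In Mal-A4 populations 3 and 2 were at 8.60 and 8.59, with array SDs of 0.25 and 0.39. The 5 were called among promiscuous populations with limma adjusted p-values from 6.96e-06 for Mal-A2 to 0.00281 for Mal-A4. Among monogamous populations Mal-A1 (F = 23.9, adjusted p = 4.35e-06) and Mal-A2 (adjusted p = 0.00597) were called and Mal-A3 (0.0554), Mal-A4 (0.140) and Mal-A7 (0.145) were not. Without promiscuous population 3 the calls of Mal-A1, Mal-A2, Mal-A4 and Mal-A7 were lost, and that of Mal-A7 was also lost without promiscuous population 2. Without monogamous population 1 the call of Mal-A2 was lost and the F of Mal-A1 was 10.5, against 41.5 without monogamous population 4.

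Mal-B1 ordered the promiscuous populations differently. Population 1 was highest at 7.17 and population 3 lowest at 5.88, with populations 2 and 4 between them at 6.44 and 6.33 and closer to each other than the SD of their arrays (0.15 and 0.21). The F was 17.3 (limma adjusted p = 8.3e-05), and the call was lost without population 1 (F = 5.70, adjusted p = 0.0962). Monogamous populations spanned 0.41 in Mal-B1 and were not called (adjusted p = 0.224), while promiscuous populations spanned 1.29. The difference between these spans was not tested.

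Monogamous populations were not called for tobi either (adjusted p = 0.240). The promiscuous ones were, narrowly (F = 5.47, adjusted p = 0.0451), with populations 4 and 3 highest at 9.84 and 9.83 and not separated, then 1 at 9.46 and 2 at 9.15. That call was lost on leaving out population 2, 3 or 4, with adjusted p-values between 0.0985 and 0.450. Mal-A8 had a further pattern. Its monogamous order was 4, 1, 2 and 3 (F = 35.7, adjusted p = 1.21e-07), with population 3, the highest in Mal-A6, lowest here at 7.40, and the F was 22.6 without population 4. In promiscuous females it was called with an adjusted p of 0.0159, and not without population 1 (0.209) or 2 (0.241). Mal-B2 was called among monogamous populations (F = 12.9, adjusted p = 0.000434), highest in population 1 at 9.25, with an F of 6.77 without population 1, 8.28 without population 4 and 23.2 without population 3. It was not called among promiscuous ones (adjusted p = 0.0565).

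**Figure D3:**
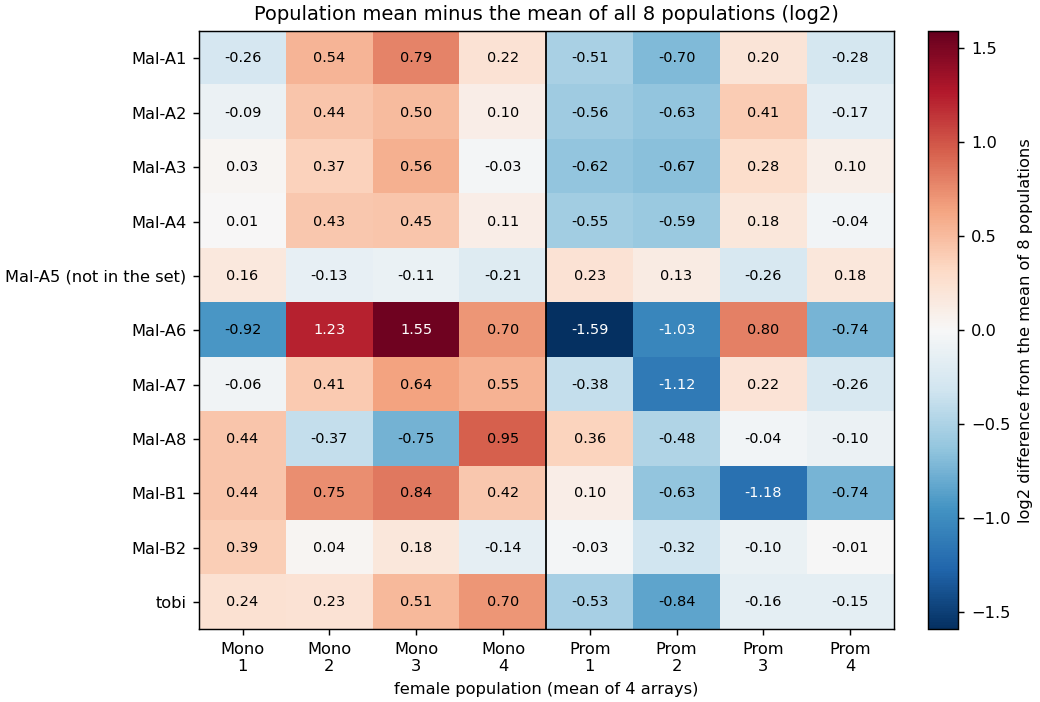
Population mean of each gene minus the mean of all 8 populations (log2, colour and printed value), with monogamous populations on the left. Mal-A1, Mal-A2, Mal-A3, Mal-A4, Mal-A6 and Mal-A7 share a high promiscuous population 3, in which Mal-B1 is at its lowest value of -1.18, and Mal-A5 runs the other way.

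The genes fell into blocks by how they moved together over the 32 arrays after the mean of each batch was subtracted. Among Mal-A1, Mal-A2, Mal-A3, Mal-A4, Mal-A6 and Mal-A7 the 15 Pearson correlations lay between 0.75 and 0.96. After population means were removed as well they lay between 0.37 and 0.94, so part of the likeness was between arrays of one population. The points share populations and crosses, and cross-hybridisation between the probe sets of these related genes was not tested. The pair Mal-A3 and Mal-A4 was closest, at 0.96 and, within populations, 0.94.

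Mal-A8 and Mal-A5, which lie in the same cluster, stood apart from those 6 genes. Mal-A8 correlated with them at -0.26 to 0.20 over the arrays, and at 0.07 to 0.50 within populations. Mal-A5 correlated with them at -0.86 to -0.51, the strongest value being with its neighbour Mal-A6, and at -0.44 to 0.18 within populations. The population means of Mal-A5 were 10.47, 10.17, 10.19 and 10.09 in monogamous and 10.53, 10.43, 10.04 and 10.48 in promiscuous females 1 to 4, low where Mal-A6 was high. RefSeq lists the older identifier CG8689 for both genes.

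The gene tobi, though on another chromosome, moved with the Mal-A block, at r between 0.66 and 0.90 with the 6 genes and between 0.59 and 0.88 within populations. Mal-B1 did so less, at 0.25 to 0.50 with the 6 and 0.61 with tobi. Over the 8 population means with the mean of each regime removed, Mal-B1 correlated with the 6 at -0.45 to -0.18, whereas tobi correlated with them at 0.49 to 0.84. These correlations are descriptions over points that share populations and arrays.

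**Figure D4:**
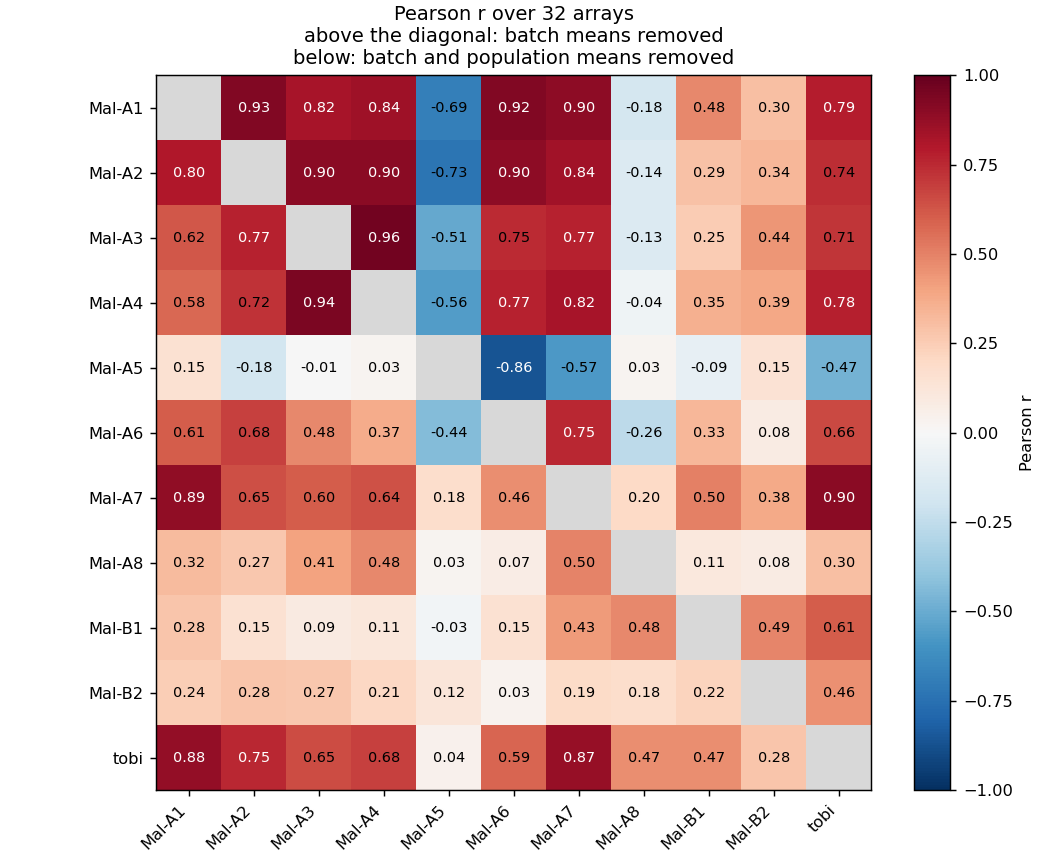
Pearson r between each pair of genes over 32 arrays, after subtraction of batch means (above the diagonal) and of batch and population means (below it), by colour and printed value. Mal-A1 to Mal-A4, Mal-A6, Mal-A7 and tobi form the block of high values, and Mal-A5 with Mal-A6 has the lowest value at -0.86.

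Across 13646 other probe sets with 1 gene, the values most like Mal-B1 over the 32 arrays, batch means subtracted, belonged to a probe set of CG40485 (r = 0.82), the zinc transporter gene Zip102B (0.80), CG11674 (0.78), CkIIalpha-i3 (0.73) and IscU (0.71), which encodes a scaffold for iron-sulfur cluster assembly. The hundredth probe set was at 0.57, and tobi ranked 61. For tobi the most alike were Mal-A7 (0.90), CG9119 (0.86), CG3609 (0.85), Had1 (0.84) and the sorbitol dehydrogenase gene Sodh1 (0.83). Mal-A1, Mal-A4, Mal-A2 and Mal-A3 ranked 10, 11, 12 and 15 in likeness to tobi, and Mal-A6 ranked 27. Mal-B1 ranked 51 and Mal-A8 ranked 1152. Each of the 10 named probe sets was also higher in monogamous females, by 0.23 to 1.08, so the likeness includes the difference between regimes.

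The regime of the males was compared within each female population, as the response to monogamous-line minus promiscuous-line males. Averaged over the 8 populations, 8 of the 10 genes had a response above 0, with a median of 0.09 against 0.002 over all probe sets, of which 51.3% lay above 0. Limma called 0 of the 10 (smallest adjusted p 0.371) and 0 of all probe sets (0%). At an unadjusted p under 0.05 there were 2 of the 10, against 11% of all probe sets, which is near the background. These 2 were Mal-A3, at 0.21 with an SE of 0.07, and Mal-A4, at 0.21 with an SE of 0.08.

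For Mal-A3 the responses were -0.12, 0.64, 0.03 and 0.25 in monogamous females 1 to 4, against 0.14, 0.44, 0.36 and -0.08 in promiscuous females. The largest came from monogamous population 2, without which the mean response of both Mal-A3 and Mal-A4 was 0.13. For tobi the responses were -0.15, 0.82, 0.07 and 0.24 in monogamous and -0.18, 0.05, 0.08 and 0.26 in promiscuous females. The mean response of tobi was 0.15 with an SE of 0.08, and 0.05 without monogamous population 2.

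The sign of the response, averaged over the batches, differed between populations. In monogamous population 2 there were 9 of the 10 genes above 0, with a median response of 0.58, and in monogamous population 4 all 10 were above 0 with a median of 0.17. In monogamous population 1 there were 2 above 0 with a median of -0.13, and in promiscuous population 1 there were 3 with a median of -0.17. These signs often differed between the batches. Monogamous population 4 had 9 of the 10 genes above 0 in batch 2 (median 0.55) and 2 in batch 1 (median -0.27), and promiscuous population 4 had 10 in batch 2 and 2 in batch 1. Monogamous population 1 had 2 above 0 in batch 2 and 6 in batch 1, and promiscuous population 1 had 1 in batch 2 and 7 in batch 1. Both of these batch 2 responses use an own-male array that is flagged for a far value near the end. Monogamous population 2 was above 0 for 9 genes in batch 2 (median 0.28) and for 10 in batch 1 (median 0.66). With 1 array per cross and batch, a difference between populations in the response was not tested. In the mean response, the 9 probe sets of midgut markers all lay above 0, with a median of 0.05. The 8 of ovary markers all lay below 0, with a median of -0.06. By female regime, the median of the midgut markers was 0.002 in monogamous and 0.09 in promiscuous females. That of the 10 genes was 0.15 in monogamous and 0.03 in promiscuous females. The part of these tissues in the responses of the maltase genes was not tested.

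Within the female regimes, the median response of the 10 genes was 0.15 in monogamous and 0.03 in promiscuous females. In monogamous females limma called 0 of the 10, and 0 of all probe sets (0%), with 2 of the 10 under an unadjusted p of 0.05 against 8.46% of all. In promiscuous females it called 0 of the 10, where 0.00533% of all probe sets were called, with 1 of the 10 under an unadjusted p of 0.05 against 10.2% of all. The difference between female regimes in the response was tested directly, and limma called 0 of the 10, against 0.00533% of all probe sets. Mal-B1 alone was under an unadjusted p of 0.05 in that test, against 7.89% of all probe sets.

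Mal-B1 responded at 0.02, 0.51, -0.10 and 0.16 in monogamous females 1 to 4 and at -0.41, -0.25, -0.07 and -0.02 in promiscuous females. Averaged over the batches, all 4 promiscuous populations were thus lower with monogamous-line males, as were 8.88% of all probe sets, whereas monogamous populations were mixed. Promiscuous populations 3 and 4 changed sign between batches, at -0.42 and -0.37 in batch 1 and 0.28 and 0.34 in batch 2. Promiscuous populations 1 and 2 were below 0 in both batches. The mean was 0.15 ± 0.27 in monogamous and -0.19 ± 0.18 in promiscuous females (SD, n = 4 each). The difference of 0.34 had an SE of 0.12, an unadjusted limma p of 0.0166 and an adjusted p of 0.587. It was 0.04 in batch 2 and 0.64 in batch 1, and 0.22 without monogamous population 2. The SE was 0.21 in batch 2 alone and 0.19 in batch 1 alone, and the difference between batches was not tested.

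**Figure D5:**
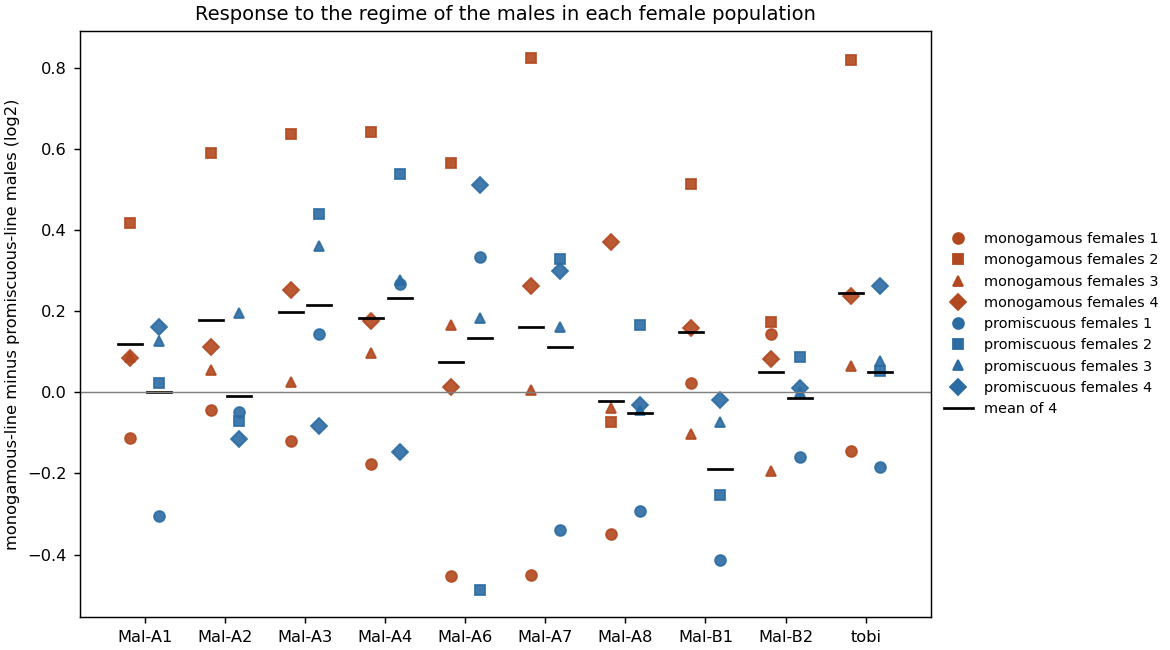
Response to the regime of the males (monogamous-line minus promiscuous-line males, log2, vertical axis) for each gene in each of the 8 female populations, monogamous females in red on the left and promiscuous females in blue on the right of each gene, with a bar for the mean of 4. Monogamous population 2 gives the highest response of tobi at 0.82. Averaged over the batches, all 4 promiscuous populations lie below 0 for Mal-B1, although populations 3 and 4 were above 0 in batch 2 alone.

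Batch 2 minus batch 1, over the 16 crosses, was called for 0 of the 10 genes by limma, where 20.2% of all probe sets were called. At an unadjusted p under 0.05 there was 1 of the 10, against 33.2% of all. That gene was tobi, at -0.23 with an SE of 0.10 (adjusted p = 0.104), and Mal-B1 was at -0.17. The female difference of Mal-B1 was 1.04 in batch 2 alone and 1.40 in batch 1 alone, and that of tobi was 0.67 in batch 2 and 1.01 in batch 1. Monogamous females were higher than promiscuous females in 9 of the genes in batch 2, where Mal-A8 was at -0.10, and in all 10 in batch 1.

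Other genes of sugar handling had medians at or below 0.01 in the comparison of female regimes. Of the 3 other carbohydrate-digesting enzyme genes with a probe set of their own, Mal-A5, Amyrel (an amylase-related gene) and GCS2alpha (a glucosidase subunit), all were below 0, with differences of -0.14, -0.22 and -0.03. The nutrient-sensing and hormone genes (16 genes, 17 probe sets) had 11 higher and 6 lower, with a median of 0.01. Those of sugar uptake, storage and breakdown (17 genes, 22 probe sets) had 10 higher and 12 lower, with a median of -0.005. None passed the limma test in either direction. An unadjusted p under 0.05 was found for 3 of the 17 nutrient-sensing probe sets, 2 of the 22 of uptake and storage and 0 of the enzymes. Of all probe sets 7.11% were under it.

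Within the nutrient-sensing genes the 2 smallest p-values belonged to daw and Smox, the ligand and mediator of the glucose response described above. The level of daw was 7.93 ± 0.08 in monogamous and 8.22 ± 0.13 in promiscuous females (SD, n = 4 each), a difference of -0.29 with an SE of 0.07 and a limma adjusted p of 0.554. Smox differed by 0.13 with an SE of 0.04. Within the sugar uptake and storage genes they belonged to the sugar transporter gene sut2, at -0.20 with an SE of 0.06, and to Pgi, which encodes phosphoglucose isomerase, at 0.07 with an SE of 0.03.

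Markers of the tissues known for these enzymes had median differences of -0.02 (midgut) and -0.03 (fat body) between the female regimes. Midgut markers, mostly trypsin-like proteases and the gastric lipase gene mag (7 genes, 9 probe sets), had 3 higher and 6 lower, of which 1 had an unadjusted limma p under 0.05 (the protease gene Jon25Bi, -0.28), with a median difference of -0.02 and a mean level of 10.32 to 10.44 over monogamous and 10.38 to 10.43 over promiscuous populations. Their mean correlated with Mal-B1 at r = -0.13 and with tobi at r = -0.12 over the 32 arrays. Fat body markers (7 genes, 1 probe set each) had 2 higher and 5 lower, with a mean level of 12.40 to 12.57 over monogamous and 12.42 to 12.60 over promiscuous populations. Of these, 3 had an unadjusted limma p under 0.05, against 7.11% of all probe sets, namely the yolk protein genes Yp2 at -0.11 and Yp3 at -0.04 and the fatty acid synthase gene FASN1 at 0.16, and none passed after adjustment. Ovary markers (8 probe sets) had 6 higher and 2 lower, with a median difference of 0.04, and their mean correlated with Mal-B1 at r = 0.40. Fbp1, a fat body marker, and 2 of the 3 probe sets of the midgut marker nub were low throughout, with means of 4.95, 3.98 and 3.85 over the arrays, and the other markers of both tissues lay between 7.15 and 14.73. The part of tissue composition in the differences of the maltase genes was not tested beyond these values.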

How the data were processed

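RNA of whole mated females was hybridised to 32 single-colour Affymetrix arrays, 8 for each of 4 groups. The authors deposited log2 expression values, for which the submitters' processing notes name RMA and affy without versions. RMA places all arrays on a shared distribution, so a shift of most genes would not show. No further normalization was applied. Of 18952 probe sets, 183 controls were left out and 18769 tested. Of these, 13647 had 1 gene in the platform annotation, 402 several and 4720 none. A RefSeq gene table (Release 6 plus ISO1 MT), which 13544 matched, was used only for names and for gene order and overlap. Its synonyms show that CG11909 is tobi, which was therefore dropped from the list of other enzymes. Coordinates in that table served only for the order and overlap of genes, and sequences were not used here.

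Tests used limma 3.58.1 in R 4.3.3 (lmFit, eBayes with an intensity trend, two-sided, Benjamini-Hochberg over all tested probe sets, threshold 0.05) and were checked on simulated data. Female regimes were compared over population means, 4 against 4, male regimes over 8 responses within female populations, populations of a regime with a moderated F test over arrays, and batches over 16 differences within crosses. Batch is the one given in the labels. All members were named, with Mal-B1 and tobi in full, and of each sugar list the genes that passed or, failing that, the 2 with the smallest p (all 3 for the enzyme list). The members and lists were chosen with earlier results of these data known. Same-numbered populations had correlated deviations of 0.129, 0.071, 0.193 and 0.024, which did not meet the criterion for pairs. Alternatives were centred array medians, leaving out the dimmest 40% of probe sets, no intensity trend, single batches, the population number as a block, arrays as samples, no male term, and each population left out. Arrays carry no read depth, and the number of populations limits the precision.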

Additional observations from a re-analysis of the deposited data

Results flagged for a closer look

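In 80 combinations of a gene (10) and a set of values (8 arrays of a group, or 4 populations' values), a value far from the rest of its own set was found in 2, where chance flags about 1 in 20. Mal-A7 was at 7.51 in the batch 2 array of monogamous population 1 with its own males, and the nearest of the other 7 arrays of monogamous females with monogamous-line males was at 8.62. Mal-A8 was at 9.11 in the batch 2 array of promiscuous population 1 with its own males, and the nearest array of promiscuous females with promiscuous-line males was at 8.19. The array of monogamous population 1 was also the lowest monogamous array for tobi (9.58), Mal-A1 (11.17), Mal-A2 (8.56), Mal-A4 (7.68) and Mal-A6 (9.02). It was not the lowest for Mal-A3, Mal-A8 or Mal-B1, and for Mal-B2 it was the highest, at 9.49. The causes were not tested.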

How the results depend on the processing

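Of 702 alternative values, 672 were counted as unchanged. The value of a single gene was so counted if it kept its direction and its side of the threshold. A count of genes was if it was equal or within a set ratio. A median over the genes was if it moved by less than 0.27, the SD among populations of the mean over the genes. In the comparisons of regimes 0 of the 10 genes passed in the main fit, so keeping that side of the threshold was likely. The share of unchanged values is therefore a weak measure of stability. With arrays as samples and the population as a random block, limma called 3 of the 10 genes for the female regime in place of 0, namely Mal-B1 (adjusted p = 9.34e-05), tobi (0.00175) and Mal-A1 (0.0282), among 155 probe sets in all. That fit assumes 1 correlation of arrays within a population, 0.142, for all probe sets, whereas that of Mal-B1 itself was 0.640, of tobi 0.353 and of Mal-A1 0.795, so the SEs of these 3 genes are too small there. With monogamous-line males the count was 1 in batch 1 alone (tobi, 1.14, adjusted p = 0.0459, among 2 probe sets in all). Population numbers were not treated as pairs, and the replicate block changed 1 count, that with promiscuous-line males, to 1 (tobi, 0.74, adjusted p = 0.0187, among 2 probe sets in all). For the female regime under the replicate block tobi had an adjusted p of 0.0852 and Mal-B1 of 0.495. Leaving out each population in turn gave 4 to 8 calls among promiscuous populations, where 1043 to 1513 of all probe sets were called. Among monogamous populations there were 4 to 6 calls, where 1814 to 1906 of all were called. In the other comparisons 0 of the 10 genes were called. Leaving populations out gave differences of 1.03 to 1.46 for Mal-B1 (adjusted p 0.220 to 0.868) and 0.70 to 0.93 for tobi (0.289 to 0.868). The median over the 10 genes was 0.45 to 0.75 and at least 9 were higher in monogamous females. The difference of Mal-A8 reversed to -0.10 in batch 2 alone and ranged from -0.16 to 0.40 with populations left out, being -0.16 without monogamous population 4 and -0.01 without promiscuous population 2. The causes were not tested. All 10 genes were kept without the dimmest 40% of probe sets.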
